A study of Mus musculus with 2 samples.

Results

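The broad H3K56ac intervals that lie outside the largest interval clusters of mouse embryonic stem cells were examined. They were chosen by width and by cluster: neighbouring intervals with a gap below 12.5 kb were joined into clusters, and intervals of 1000 bp or more were kept where the summed interval width of the cluster was below 10000 bp. This gave 842 broad intervals of the 92549 in the deposited list (0.910%), and 842 of the 1439 intervals of 1000 bp or more (58.5%). They lay in 680 of 22232 clusters, together with 10217 narrower intervals. The other 597 intervals of 1000 bp or more lay in 186 of the 193 clusters of 10000 bp or more.

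The study performed chromatin immunoprecipitation with sequencing on E14Tg2a, a male embryonic stem cell line grown in serum with leukaemia inhibitory factor (LIF), using an antibody to acetylated lysine 56 of histone H3 (H3K56ac). The series holds 1 ChIP library and 1 library of input DNA, both from E14Tg2a cells, with no treatment or genetic change named; the input was not analysed here. The ChIP list gives a chromosome, a start and an end for each interval in the mm9 build named by the submitters' processing notes, on a grid of 50 bp, and holds no height, score or read count. The read depth is therefore unknown, there is no replicate, and no difference was tested: each value below describes 1 library, and each confidence interval covers counting error only and treats intervals as independent, which neighbours are not.

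Lysine 56 lies in the globular core of histone H3, close to the points where DNA enters and leaves the nucleosome, so that its acetylation sits at the contact between histone and DNA. The mark is known in yeast from newly made histone H3 placed on replicated DNA, and in mammalian cells the acetyltransferases p300 and CBP have been linked to it. The study's title ties the mark to Oct4, the transcription factor that keeps embryonic stem cells pluripotent. Broad runs of histone acetylation are known from active promoters and enhancers in general, but which genes lie at these intervals was not analysed here, because no mm9 annotation was used. No mm9 genome was used either, so no sequence is shown.

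Width and cluster size were what the choice rested on, and their values are a description. The broad intervals had a median width of 1250 bp, with quartiles of 1100 and 1550 bp and a maximum of 4300 bp. There were 334 of 1000 to 1150 bp, 259 of 1200 to 1450 bp, 163 of 1500 to 1950 bp and 86 of 2000 bp or more. Widths ran on smoothly across the lower limit: in clusters below 10000 bp, 154 intervals were 900 bp wide and 126 were 950 bp wide, just outside, while 109 were 1000 bp wide and 80 were 1050 bp wide, just inside. At the cluster limit, 29 of the broad intervals lay in clusters of 9500 to 9950 bp, just inside, and 36 further broad intervals lay in clusters of 10000 to 10450 bp, just outside. The 597 broad intervals of the large clusters had a median width of 1400 bp (quartiles 1150 and 1850 bp, maximum 7250 bp).

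The broad intervals seldom stood alone. Of the 680 clusters, 543 held 1 broad interval, 116 held 2, 17 held 3 and 4 held 4. The clusters had a median of 15 intervals (quartiles 8 and 22, at most 46), a median summed width of 4325 bp (quartiles 2900 and 6100 bp) and a median span of 26.6 kb (quartiles 14.04 and 42.7 kb). Broad intervals made up 37.0% of all interval bases of their clusters. Cluster by cluster their share had a median of 39.4% (quartiles 26.8% and 54.1%), and it was above 50% in 200 of 680 clusters. In the 538 clusters with 1 broad interval and at least 1 narrower one, the widest narrower interval had a median width of 600 bp, and the broad interval was 2.30 times as wide as that one at the median (quartiles 1.71 and 3.42). A ratio above 1 is given by the width limit.

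The widest of the 842 was 4300 bp long on chromosome 4, from 141725851 to 141730150. Its cluster held 14 intervals over 28.8 kb, and the broad interval made up 52.4% of the 8200 bp of interval sequence. The intervals around it were unevenly placed. To its left 7 intervals were packed from 141719901 to 141725550, among them another broad one of 1150 bp, and the last of them ended 300 bp from its edge. To its right the nearest interval was 5200 bp away, and all 6 intervals there were between 50 and 250 bp wide. Within 2 kb of its edges, 700 bp of interval sequence lay to the left and 0 bp to the right.

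The second widest, 3450 bp on chromosome 7 from 26218701 to 26222150, had another broad interval of 1550 bp 450 bp to its left and a narrower one of 500 bp 200 bp to its right. The third, 3300 bp on chromosome 8 from 125045851 to 125049150, was the only broad interval of a cluster of 23. It had narrower pieces on both sides, with 1000 bp of interval sequence within 2 kb to the left and 1350 bp to the right. The fourth, 3050 bp on chromosome 9 from 57274451 to 57277500, had a single interval of 150 bp to its left within the cluster, and made up 59.8% of the interval sequence of a cluster of 8. Then came one of 3000 bp on chromosome 6 (122292451 to 122295450), 550 bp from another broad interval of 1800 bp on its left and 150 bp from a 550 bp interval on its right. So 3 of the 5 widest shared their cluster with another broad interval, and the 5 clusters ranged from 8 to 23 intervals.

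The cluster with the most broad intervals and the largest summed width among such clusters lay on chromosome 10 from 80589051 to 80611500. Its 4 broad intervals followed one another without a narrower one between them: 80600551 to 80602800 (2250 bp), 80602951 to 80604550 (1600 bp), 80604701 to 80606150 (1450 bp) and 80606451 to 80608500 (2050 bp). The gaps between them were 150, 150 and 300 bp, and 150 bp is the smallest gap in the list. The other 10 intervals of this cluster were between 50 and 650 bp wide. With 9750 bp of interval sequence in all, the cluster was close to the 10000 bp limit. The closest pair, of 19 pairs at the smallest gap, the first in genome order, lay on chromosome 1 from 135559151 to 135560900 (1750 bp) and from 135561051 to 135562250 (1200 bp).

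**Figure D1:**
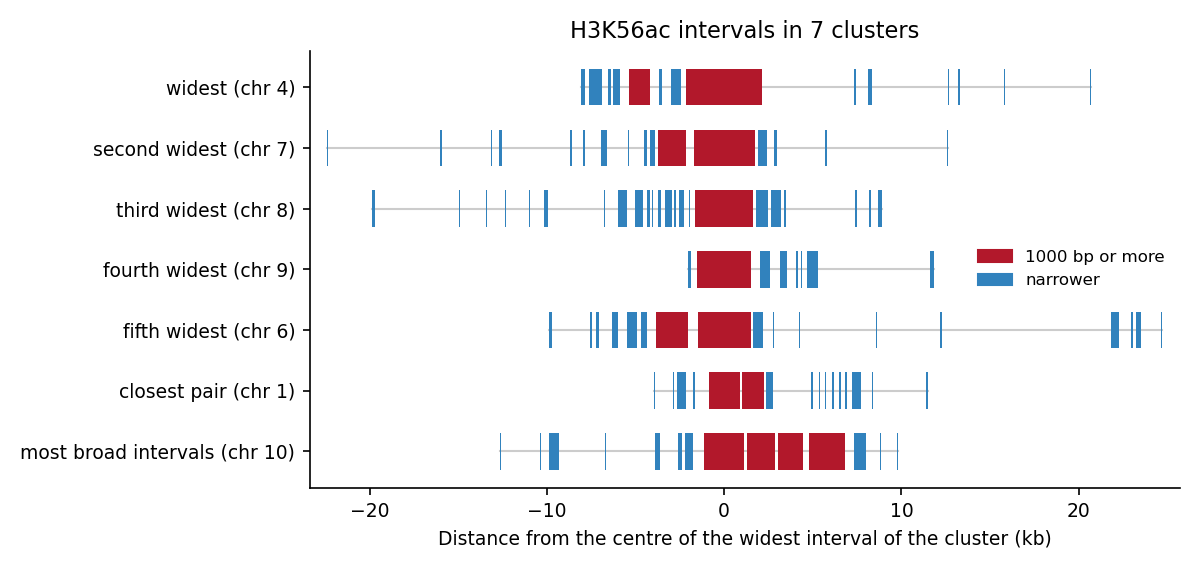
H3K56ac intervals in the clusters of the 5 widest broad intervals, of the closest pair and of the cluster with the most broad intervals, by distance in kb from the centre of the widest interval of each cluster; red bars are intervals of 1000 bp or more, blue bars narrower ones and the grey line is the span of the cluster. Broad intervals have narrow intervals close to their edges in most of these clusters, the widest one has none within 5200 bp to its right, and in the bottom row 4 broad intervals follow one another.

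Only 5 of the 842 had no other interval within the joining distance, and all 5 were near the lower width limit. They were 1100 bp on chromosome 19 (56622251 to 56623350), 1100 bp on chromosome 8 (121828251 to 121829350), 1050 bp on chromosome 18 (24811501 to 24812550), 1050 bp on chromosome 7 (6106601 to 6107650) and 1000 bp on chromosome 4 (3344151 to 3345150). Their nearest intervals were 18750, 52250, 13400, 16550 and 13600 bp away, in the same order. For 4 of them another interval thus lay within 20 kb, just past the joining distance, whereas the one on chromosome 8 was farther from any other interval.

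Clusters with and without a broad interval were then compared at the same summed width. The share of clusters that held a broad interval went up with summed width, from 66 of 1841 clusters of 1000 to 1950 bp (3.59%, exact binomial 95% interval 2.78% to 4.54%) over 111 of 243 clusters of 4000 to 4950 bp (45.7%, 39.3% to 52.2%) to 73 of 93 clusters of 8000 to 9950 bp (78.5%, 68.8% to 86.3%). A wider sum makes room for a broad interval and a broad interval adds to the sum, so this rise is in part given by the choice. Even so, 20 clusters of 8000 to 9950 bp reached that sum without an interval of 1000 bp or more, and 7 clusters of 10000 bp or more did so too.

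At like summed width, clusters with a broad interval had fewer intervals and were shorter. Among clusters of 4000 to 4950 bp, the median number of intervals was 16 with a broad interval and 22 without, and the median span was 29.3 kb and 41.3 kb. Among clusters of 8000 to 9950 bp, the medians were 30 and 46.5 intervals and 52.5 and 83.2 kb. This held in all 7 classes of summed width. Fewer intervals follow from the choice itself, since 1 broad interval takes up bases that several narrow ones would otherwise hold; the shorter span was not part of the choice, but a cluster of fewer intervals has fewer gaps.

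**Figure D2:**
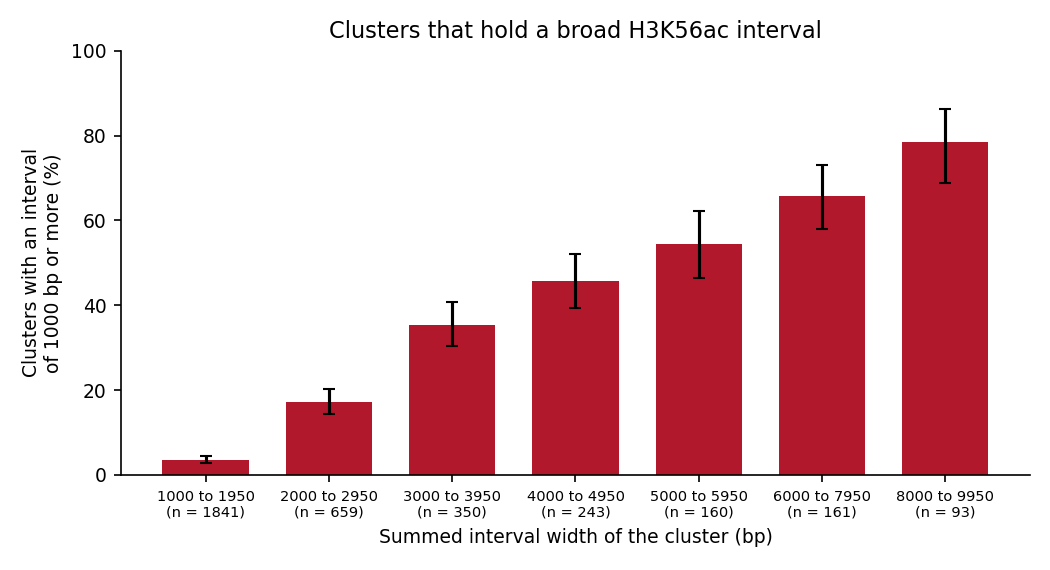
Share of clusters with at least 1 interval of 1000 bp or more (%), by summed interval width of the cluster (bp); bars are shares, error bars exact binomial 95% intervals and n the number of clusters. The share goes up from 3.59% at 1000 to 1950 bp to 78.5% at 8000 to 9950 bp.

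Broad intervals had another interval closer by than the narrower intervals of the same clusters did. The gap from the edge of a broad interval to the nearest other interval had a median of 250 bp (95% interval of the median 250 to 300 bp, n = 842), with quartiles of 200 and 400 bp. For the 10217 narrower intervals of the same clusters the median was 400 bp (400 to 400 bp), with quartiles of 250 and 900 bp. A neighbour lay within 500 bp of 734 of 842 broad intervals (87.2%, exact binomial 95% interval 84.7% to 89.4%) and of 58.7% of narrower ones (57.7% to 59.7%). The gap on the farther side differed more, with a median of 550 bp for broad and 1800 bp for narrower intervals. Both sides had a neighbour below 1 kb for 69.4% of broad and 37.2% of narrower intervals.

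The gap, by its median, fell with interval width up to the class of 500 to 950 bp and was 250 or 300 bp in the wider classes. Its median was 700 bp for the 2539 intervals of 50 bp in these clusters, 500 bp for the 2582 of 100 bp, 350 bp for the 4189 of 150 to 450 bp and 250 bp for the 907 of 500 to 950 bp. The last class could not be told from the broad intervals by this measure: a neighbour lay within 500 bp of 87.4% (85.1% to 89.5%) of intervals of 500 to 950 bp and of 87.2% of broad ones. Among the broad intervals the median went from 300 bp at 1000 to 1150 bp to 250 bp in each of the wider classes, and the share with a neighbour within 500 bp from 82.9% (78.5% to 86.8%) at 1000 to 1150 bp to 94.2% (87.0% to 98.1%) at 2000 bp or more. Broad intervals of the large clusters had a median gap of 250 bp and a neighbour within 500 bp in 93.1% (90.8% to 95.0%).

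The comparison held cluster by cluster. In 675 clusters with both kinds, the median nearest gap of the broad intervals was smaller than that of the narrower ones in 490 (72.6%), equal in 54 and larger in 131. A gap between a broad and a narrower interval can be the nearest gap of both. Without the narrower intervals next to a broad one, 662 clusters could be compared, and the broad interval had the smaller gap in 501 (75.7%), the same gap in 29 and the larger gap in 132. This leaves the shared gaps on the broad side and takes out closely spaced narrower intervals. Those next to a broad interval had a median nearest gap of 300 bp, and the others 450 bp. The second count therefore leans towards the broad intervals and is no check on the shared gaps.

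**Figure D3:**
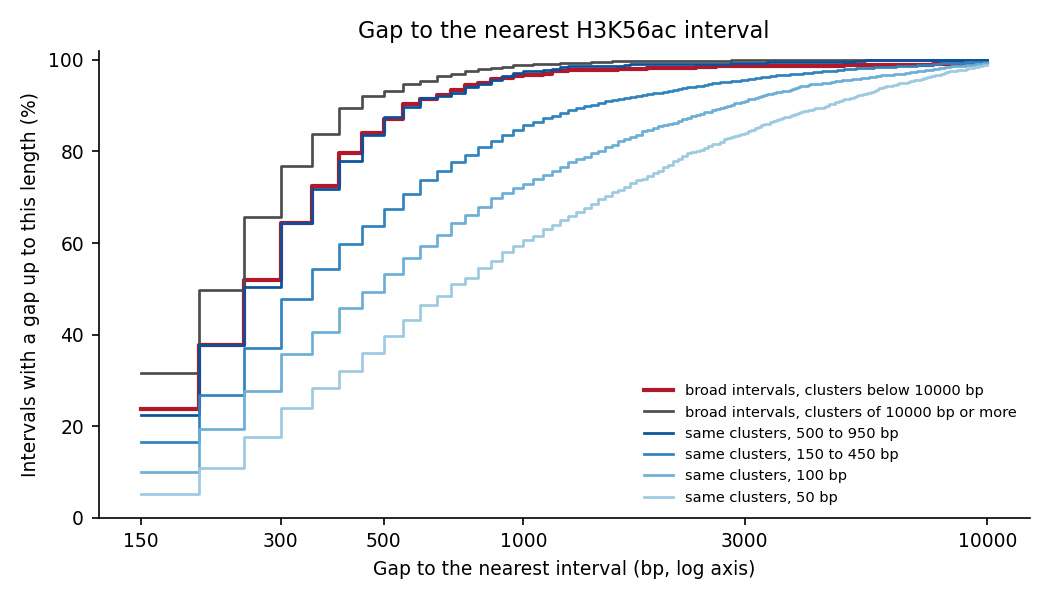
Share of intervals (%) whose gap to the nearest other interval is at most the length on the horizontal axis (bp, log axis), for the 842 broad intervals (red), for narrower intervals of the same clusters in 4 width classes (blue) and for the broad intervals of the large clusters (grey). The red line runs along that for 500 to 950 bp, at 87.2% and 87.4% at 500 bp, and above those for narrower classes up to several kb.

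The intervals beside a broad interval were wider than those beside a narrower one. Counting only neighbours below 1000 bp in the same cluster, the median width was 200 bp (95% interval 150 to 200 bp, n = 1446 neighbours) beside broad intervals and 100 bp beside narrower ones (n = 17698). The means were 280 ± 231 bp and 192 ± 176 bp (SD between neighbours). Neighbours of 500 bp or more made up 20.5% beside broad and 8.34% beside narrower intervals. Beside intervals of 500 to 950 bp, the neighbours had the same median of 200 bp and a mean of 249 ± 207 bp, and 14.1% of them were 500 bp or more.

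Neighbours became narrower with each of 5 steps away from a broad interval, and gaps longer over the first 4. With broad neighbours counted too, the mean width was 403 bp for the first interval on either side, 280 bp for the second, 224 bp for the third, 200 bp for the fourth and 195 bp for the fifth. The median gap before each of these was 350, 450, 550, 700 and 700 bp. Around narrower intervals of the same clusters, the mean width stayed between 282 and 294 bp over the same 5 steps and the median gap between 600 and 650 bp. These neighbours include the broad intervals themselves, which made up 7.09% to 7.95% of them. In the 543 clusters with 1 broad interval, that interval cannot be its own neighbour. The lower mean widths at the farther steps from a broad interval are thus in part given by the choice. Of the first neighbours of broad intervals, 10.4% were themselves 1000 bp or more, against 1.54% of the fifth. Narrower intervals of 500 to 950 bp showed a decline of the same kind, from 451 bp at the first neighbour to 248 bp at the fifth.

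Within 2 kb of both edges, broad intervals had on average 834 ± 516 bp of other intervals below 1000 bp (SD between intervals, n = 842), and narrower intervals of the same clusters 472 ± 434 bp, a ratio of 1.77. With each cluster counted once the means were 863 and 419 bp (675 clusters), and the broad interval had the larger value in 585 clusters (86.7%), the smaller in 87 and the same in 3. Against intervals of 500 to 950 bp, which had 679 ± 452 bp, the ratio was 1.23. This order rested on which neighbours were counted: a broad interval close to a narrower one takes up room in its window but was left out of the sum. With broad neighbours included, the mean was 1159 ± 663 bp around broad intervals and 1277 ± 681 bp around those of 500 to 950 bp, a ratio of 0.907, so that the direction turned. Against all narrower intervals, at 729 ± 663 bp, the ratio was 1.59 and kept its direction. The count of 585 clusters also left broad intervals out of the windows, and it was not repeated with all intervals counted. It is thus no check on that choice. Narrower intervals next to a broad one have it beside them by definition. Their mean was 370 bp without broad intervals and 1558 bp with all intervals counted.

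The narrow intervals around a broad one were concentrated in the first kilobases. They covered 18.1% of the bases at 0 to 500 bp beyond its edges, where the smallest gap of 150 bp leaves less room, 29.9% at 500 to 1000 bp, 19.7% at 1000 to 1500 bp and 15.6% at 1500 to 2000 bp. At 4000 to 4500 bp the coverage was 7.52%, below the 8.67% around the narrower intervals of the same clusters, and at 9500 to 10000 bp it was 4.30% against 6.13%. With each cluster counted once, the values were closer, 6.75% against 7.30% at 4000 to 4500 bp and 4.36% against 4.59% at 9500 to 10000 bp. Around the broad intervals of the large clusters the coverage at 500 to 1000 bp was close to this, 32.3%, but at 4000 to 4500 bp it was 19.2%. The limit on summed width, by which the 2 sets were told apart, bounds the coverage around the former. Its part in this difference was not tested. At 1500 to 2000 bp the coverage was 15.6% and 21.4%. With broad neighbours included, interval sequence within 2 kb was 1159 bp around the former and 1807 bp around the latter on average, and 10.4% and 22.8% of first neighbours were 1000 bp or more.

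**Figure D4:**
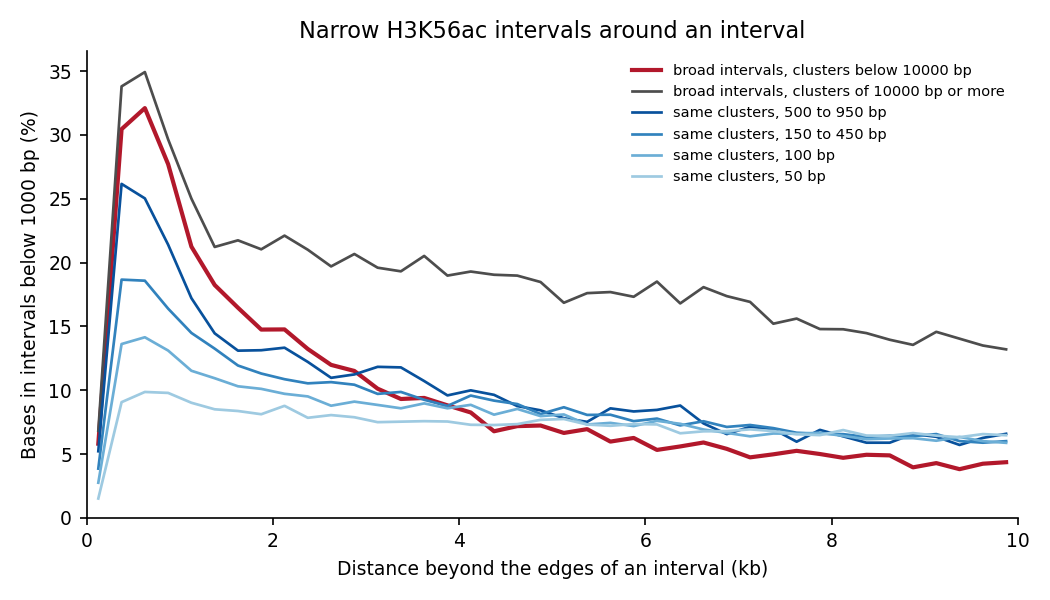
Share of bases covered by intervals below 1000 bp (%), by distance beyond both edges of an interval (kb, steps of 250 bp), for the 842 broad intervals (red), for narrower intervals of the same clusters in 4 width classes (blue) and for the broad intervals of the large clusters (grey). The red line falls from its highest values below 1 kb to under those of the narrower classes past 5 kb, while the grey line stays far above all others past 2 kb.

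The flanks of a broad interval were often uneven. Within 2 kb, 664 of 842 (78.9%) had another interval on both sides, 163 on 1 side only and 15 on neither. The side with more interval sequence had 852 bp on average and the other 307 bp, a sorting that any unevenness would show. Left and right in the genome gave like values: the nearest interval was to the left of 391, to the right of 378 and at the same distance on both sides of 72, and the mean interval sequence within 2 kb was 593 bp to the left and 566 bp to the right. One of the 842, the last interval listed on X, had no interval to its right.

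Broad intervals lay inside their clusters more often than narrower ones. Of the 842, 65 were the first or last interval of their cluster (7.72%), while 12.6% of narrower intervals were at an end. Of intervals of 50 bp 18.3% were at an end, and of those of 500 to 950 bp 4.52%. The centre of the interval fell in the central 50% of the cluster span for 53.8% of broad and 46.4% of narrower intervals. Clusters of few intervals weigh more among the broad ones, whose clusters had a median of 16 intervals counted per broad interval, against 22 counted per narrower interval.

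The widest interval of clusters that held no broad one served as a further comparison. In the 1052 such clusters of 2000 to 9950 bp, the widest interval had a median gap to its nearest neighbour of 300 bp, a neighbour within 500 bp in 79.2% (76.6% to 81.6%), and 707 ± 441 bp of other intervals within 2 kb (SD between intervals). In the 614 clusters of the same range with a broad interval, the widest had a median gap of 250 bp, a neighbour within 500 bp in 88.8% (86.0% to 91.2%), and 918 ± 505 bp of intervals below 1000 bp within 2 kb. The median number of intervals was 16 in both sets, but the median summed width was 2900 bp without and 4600 bp with a broad interval, so the sets were not matched in size.

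Gaps at the edge of a broad interval were short as a group. The 1530 gaps with a broad interval on at least 1 side had a median of 350 bp (quartiles 250 and 600 bp), and the 8849 other gaps within the same clusters a median of 700 bp (350 and 2150 bp). A gap of 150 bp, the smallest in the list, made up 12.9% of the former and 6.62% of the latter. Beside broad intervals there were 169 gaps of 300 bp, against 164 of 250 bp and 103 of 350 bp (1.27 times the mean of the other 2 counts). Elsewhere in the clusters there were 573, against 516 and 399 (1.25 times). Between 2 adjacent broad intervals there were 8 gaps of 300 bp, 7 of 250 bp and 12 of 350 bp (0.842 times). Beside broad intervals the 300 bp count was thus close to that of 250 bp, and the 400 bp count also lay above both of its neighbours. There, 129 gaps were of 400 bp, against 103 of 350 bp and 74 of 450 bp. Elsewhere in the clusters the counts were 367, 399 and 323.

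Most broad intervals were the only one of their cluster, and 299 of the 842 (35.5%, exact binomial 95% interval 32.3% to 38.8%) shared it with at least 1 other. The 162 spacings between consecutive broad intervals of a cluster had a median of 600 bp (quartiles 350 and 3100 bp) and reached 35400 bp. In 84 of the 162 (51.9%) no narrower interval lay between, in 25 there was 1 and in 53 there were 2 or more. The 84 directly adjacent pairs had a median gap of 350 bp (quartiles 200 and 412.5 bp), 74 of them were 500 bp apart or less, and 19 were 150 bp apart. The pairs 150 bp apart would count as 1 interval under a slightly longer joining of windows, and the other pairs only under a longer one. Whether any of the pairs are separate sites was not tested. Merging all intervals less than 500 bp apart before joining gave 4110 broad intervals in place of 842, so that their number depends on how the deposited list was joined. Broad intervals that shared a cluster had a median width of 1300 bp and the others 1250 bp.

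Distances between broad intervals of different clusters were longer, which the joining distance in part fixes. The 660 distances from a broad interval to the next in another cluster of the same chromosome had a median of 1315 kb (quartiles 367 and 3996 kb), with a median of 90 other intervals in between (quartiles 38.8 and 170). Over all 822 spacings, 220 (26.8%) were under 100 kb, 376 were 1 Mb or more, and 57 were 10 Mb or more. The longest stretch without one was 81.7 Mb on X, from 55292950 to 136967401, and contained 916 intervals. The next were 64.4 Mb on chromosome 12 (12948600 to 77316551, 869 intervals) and 61.9 Mb on chromosome 2 (84583850 to 146455601, 1459 intervals). These stretches were thus not empty of H3K56ac intervals, and any broad ones in them lay in clusters of 10000 bp or more. Clusters with a broad interval lay within 100 kb of a cluster of 10000 bp or more in 47 of 676 cases (6.95%, 5.15% to 9.14%), on chromosomes that have such a cluster. Clusters of 1000 to 9950 bp without a broad interval did so in 205 of 2760 cases (7.43%, 6.48% to 8.47%). These sets differ in size, and by summed width the order went both ways. The share was lower with a broad interval in each class below 5000 bp and at 6000 to 7950 bp. It was higher at 5000 to 5950 bp and at 8000 to 9950 bp. Among clusters of 4000 to 4950 bp the shares were 3.604% with and 9.23% without a broad interval, and among those of 8000 to 9950 bp 16.7% with and 5.00% without. The last class held only 20 clusters without a broad interval.

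All 19 autosomes and X carried some of these broad intervals, and the sequence named 21 carried none of its 106 intervals. Per 1000 intervals, the autosomes ranged from 5.77 on chromosome 5 (exact binomial 95% interval 4.07 to 7.95, 37 of 6408) to 12.9 on chromosome 18 (8.90 to 18.1, 33 of 2557), with a mean of 9.31 ± 2.03 (SD, 19 autosomes). Chromosome 7 had 12.3 (9.69 to 15.4, 75 of 6096) and chromosome 1 had 11.8 (9.09 to 15.0, 65 of 5524). The intervals of chromosomes 5 and 18, the lowest and highest of 19, did not overlap, but these were picked as the lowest and highest values. In number, chromosome 11 had the most, 78, and chromosome 13 the fewest of the autosomes, 19.

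Within the clusters that held them, where at least 1 per cluster is given by the choice, broad intervals made up 76.8 ± 8.40 per 1000 intervals (SD, 19 autosomes), from 55.98 on chromosome 5 to 88.3 on chromosome 14. Their part in all intervals of 1000 bp or more also counts how much lies in large clusters. It was 38.5% on chromosome 17 (35, beside 56 in large clusters) and 38.8% on chromosome 12 (26, beside 41), and 75.6% on chromosome 16 (31, beside 10) and 72.6% on chromosome 10 (53, beside 20). On chromosome 11 it was 51.0%, with 75 further broad intervals in 22 large clusters. The median width was between 1100 bp on chromosome 5 and 1400 bp on chromosome 17.

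The X chromosome had 5 broad intervals among 2202, or 2.27 per 1000 (0.738 to 5.29), against 9.28 per 1000 (8.66 to 9.92) over the pooled autosomes. It had no cluster of 10000 bp or more, so these 5 were all of its intervals of 1000 bp or more. The clusters that held them had 3.72% (2.97% to 4.60%) of the intervals of X, and such clusters had 12.2% (12.0% to 12.4%) of those of the autosomes. Within these clusters the values were closer, 61.0 broad intervals per 1000 intervals on X (20.1 to 137) and 76.3 (71.4 to 81.4) on the pooled autosomes. E14Tg2a, as a male line, has 1 copy of X, and the part of copy number in these values was not tested.

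The 5 on X were 1500 bp from 55284201 to 55285700 and 1050 bp from 55291901 to 55292950, both in 1 cluster of 32 intervals, 1100 bp from 136967401 to 136968500, 2050 bp from 155964301 to 155966350 and 1500 bp from 166445301 to 166446800. Their nearest gaps were 200, 250, 150, 750 and 150 bp, in that order, inside the range of the autosomal ones. They were picked out after their values were seen, for their small number. Within 2 kb they had 750 ± 326 bp of intervals below 1000 bp (SD, n = 5).

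**Figure D5:**
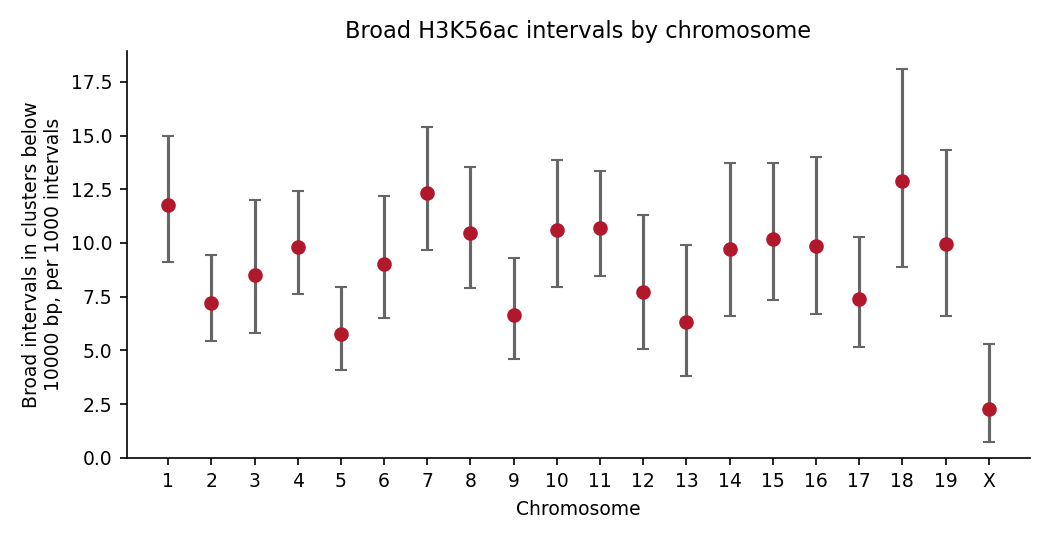
Broad intervals in clusters below 10000 bp per 1000 intervals of each chromosome; points are values and bars exact binomial 95% intervals. X, at 2.27, lies below all 19 autosomes, which range from 5.77 to 12.9, but its bar overlaps those of chromosomes 5, 9, 12, 13 and 17.

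When the span between the first and last interval of each chromosome was divided into 10 equal parts, in the direction of the coordinates, the last part held 129 broad intervals (15.3%), 15.8% of the narrower intervals of their clusters and 15.6% of the list. The first part held 59 (7.01%), against 6.50% and 7.20%. The fourth held 11.3% of the broad intervals and 8.69% of the list, the seventh 12.1% and 9.97%, and the sixth 7.13% and 9.02%. Per 1000 intervals, the 10 parts ranged from 7.18 in the sixth to 11.8 in the fourth, with 8.94 in the last.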

How the data were processed

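The list analysed is the interval list of 1 H3K56ac ChIP-seq library from E14Tg2a cells, as deposited by the authors: 3 columns without a header that hold a chromosome and the start and end in bp, with no signal value. Per the submitters' processing notes, Bowtie and the mm9 build were used; for the interval caller, its threshold, the role of the input and how windows were joined, the processing is not given in the sources used here. In the file, 0 intervals had a start or end off the 50 bp grid, with starts counted from 1 and the end included, and the smallest gap was 150 bp. Unknown joining of windows sets both interval width and gap length, so width is that of a called interval, not of an acetylated site.

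Width was end minus start plus 1. A gap is the number of bases between neighbours. Clusters, widths, gaps and flank sums were computed with Python 3.11.15, numpy 2.4.6, pandas 2.3.3 and scipy 1.17.1, and plotted with matplotlib 3.10.9. Shares carry exact binomial 95% intervals (Clopper-Pearson) and medians order-statistic 95% intervals, which cover counting error only. Narrower intervals of the same clusters were the comparison. The code was tested on simulated data. Regions named by position were the 5 widest, up to 5 without a neighbour within the joining distance, the closest pair, and the cluster with the most broad intervals. The set, its limits and the comparisons were chosen with earlier results of these data known. Start sites, gene lists, GC content and sequences were planned but not analysed here, since the RefSeq tables used here are of assembly GRCm38.p6, another build.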

Additional observations from a re-analysis of the deposited data

How the results depend on the processing

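Under the alternatives, 62 of 112 values changed little (inside its 95% interval, or within 1.5 times for the number of broad intervals, ratios and differences), 49 moved and 1 changed direction. The cause of the moves was not tested, other than where stated. The number of broad intervals, 842, was 450 with a cluster limit of 5000 bp, 249 and 1794 with minimum widths of 1500 and 750 bp, and 4110 after merging intervals less than 500 bp apart. Of these 4110, 123 had the exact start and end of an interval of the original set. Merging changes the ends of any interval with so close a neighbour, and 84.0% of the 842 had one within 450 bp. The 123 is thus no count of the original regions kept. Median width, 1250 bp, was 1200 bp with the 5000 bp limit, 1800 and 950 bp with the 2 minimum widths and 1450 bp after merging. The share of cluster bases, 37.0%, was 42.8% and 33.1% with joining distances of 5000 and 25000 bp, 44.6% and 34.2% with cluster limits of 5000 and 20000 bp, 39.1% with 750 bp, 39.7% without 50 bp intervals and 67.6% after merging. The median nearest gap, 250 bp, was 850 bp after merging, which removes gaps below 500 bp by construction; the median width of neighbours, 200 bp, was then 100 bp, and 250 bp with a minimum width of 1500 bp. Interval bases within 2 kb, 834 bp, were 714 and 887 bp with the 2 cluster limits, 1123 and 660 bp with the 2 minimum widths, 238 bp after merging and 1159 bp with all intervals counted.

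The share that had another broad interval in the cluster, 35.5%, was 16.0% and 52.0% with the 2 cluster limits, 17.7% and 49.4% with the 2 minimum widths and 43.7% after merging. The median distance between neighbouring broad intervals, 749000 bp, was 456950 and 1396150 bp with the 2 joining distances, 2138650 and 293500 bp with the 2 cluster limits, 2569200 and 246225 bp with the 2 minimum widths, 611100 bp without 50 bp intervals and 122050 bp after merging. Per 1000 autosomal intervals, 9.28 became 11.5 and 6.63, 4.98 and 13.3, 2.73 and 19.7, 14.5 and 61.2 in the same order of settings. On X, 2.27 became 0.454 with the 5000 bp limit, 9.08 with 750 bp and 42.0 after merging. X stayed below the autosomes in all 8, but the 8 settings share intervals and are not separate counts. With both joining distances and the 20000 bp limit, X kept its 2.27 from the same 5 intervals. Counting only intervals below the minimum width, broad intervals had more bases within 2 kb than narrower ones in all 8 settings (ratio 1.34 to 2.11, main 1.77). Broad neighbours were left out in each of the 8, so they are no check on that choice. All intervals were counted only with the main setting, at a ratio of 1.59. Broad intervals also had a smaller median gap in all 8 settings (by 100 to 250 bp, main 150 bp, and 250 bp with a joining distance of 25000 bp). Against intervals of 500 to 950 bp the ratio was 1.02 to 1.49 in these settings (main 1.23), 1.76 with each cluster counted once, and 0.907 with all intervals counted. With a minimum width of 750 bp, intervals from that width on count as broad, so the class then held only those below 750 bp. Counting all intervals, counting each cluster once and the comparisons with narrower intervals were added after the data were examined. No paired analysis was possible because there is 1 library per group. Start sites and GC content were not run, for want of a genome and annotation of the build. With no reads or scores in the list, the depth is unknown, and weak flanks that went uncalled look like bare ones.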
